A study of Mus musculus with 8 samples.

Results

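The first 100 kb of assembled sequence of mouse chromosome 9 (mm10, ending at 3100000) held 521 of 17418 calls of N6-methyladenine, each an adenine in 1 of 4 lists, in H2A.X chromatin of mouse embryonic stem (ES) cells. They were chosen by position alone, as every call on chromosome 9 within these coordinates, but the window itself was chosen by the number of calls it holds, so its high number is a description. KO S held 120 of them, WT S 195, KO L 109 and WT L 97. KO stands for TT2 ES cells with a knockout of Alkbh1 and WT for wild-type TT2 cells, S for the short and L for the long part of the immunoprecipitated DNA. All groups shared the strain background (C57BL6 x CBA), culture without feeder cells, passage 5 to 10, native chromatin immunoprecipitation with a custom H2A.X antibody and single-molecule real-time sequencing. The labels do not say whether the KO cells are 1 clone. The 8 samples were 2 replicates of each group, which may be repeat sequencing of the same DNA, and the labels of both point to 1 list of calls. No spread between replicates can be given, and no difference below has a test. Intervals are exact 95% intervals that treat calls as independent, so they cover counting error only and are too narrow where calls share molecules.

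Pericentromeric heterochromatin of the mouse is built of the major satellite, an A/T-rich tandem repeat whose copies follow each other head to tail next to the centromere. H2A.X, a variant of histone H2A, becomes phosphorylated where DNA is broken. ALKBH1 is a dioxygenase of the AlkB family that is described as a demethylase of N6-methyladenine in DNA and also acts on RNA. Single-molecule sequencing times the polymerase as it passes each base. The IPD ratio divides the observed waiting time (inter-pulse duration) by the one predicted for unmodified DNA, and some modified bases raise it. A short read of a tandem repeat can fit many copies, so a call at a given copy need not come from that copy.

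The repeat unit was rebuilt from the 41-base contexts that the lists give around each called adenine. A walk over the commonest 15-base words of the 372 different bases called in the window closed on itself after 45 A, 53 C, 33 G and 103 T, the length known for the major satellite unit. That length was required in advance, and any other would have stopped the procedure, so it is no independent check. No sequence of the satellite from outside the lists was used. The unit is printed as the plus strand of chromosome 9, with the 10 positions that held the most calls in capitals; at a capital T the called adenine lies on the opposite strand.

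unit: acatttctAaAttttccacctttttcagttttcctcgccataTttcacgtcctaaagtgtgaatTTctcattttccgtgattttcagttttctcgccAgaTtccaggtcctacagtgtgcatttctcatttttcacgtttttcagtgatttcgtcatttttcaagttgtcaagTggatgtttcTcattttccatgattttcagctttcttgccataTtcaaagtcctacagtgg

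Its A/T content was 63.2%, and it has 148 adenines over both strands. Of the 521 contexts, 500 (95.97%) matched the unit at 33 or more of 41 bases, and 92 matched it at all 41. The unit was built from these same contexts, so the match shows that nearly all calls lie in copies of 1 repeat and is no independent check of its name. Contexts that overlap at the same coordinates gave the same base at each of 4269 bases that were covered again, which is no check of the unit. The placed calls were 116 of 120 in KO S, 185 of 195 in WT S, 105 of 109 in KO L and 94 of 97 in WT L.

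Below stands, for each of the 6 unit positions with the most calls, the 41-base context found at the most bases of the window, which is 11 bases at position 9 and 4 to 7 at the others. Each is read 5′ to 3′ on the strand of the called adenine, which is in capitals, and the coordinate is that of the first base (mm10) called in that context.

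Position 9, plus strand, 3004056: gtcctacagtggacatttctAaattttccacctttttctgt
Position 43, minus strand, 3003680: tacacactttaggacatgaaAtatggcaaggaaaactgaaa
Position 66, minus strand, 3001716: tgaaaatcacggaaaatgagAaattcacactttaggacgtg
Position 101, minus strand, 3005317: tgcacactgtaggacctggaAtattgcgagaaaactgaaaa
Position 98, plus strand, 3006133: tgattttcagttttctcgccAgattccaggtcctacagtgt
Position 217, minus strand, 3027095: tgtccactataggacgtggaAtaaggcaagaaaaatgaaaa

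Calls filled the beginning of the window and were absent from the rest of it. The first lay at 3000135 and the last at 3038205, both in WT S, a stretch of 38071 bases or 162.7 unit lengths. No list held a call in the 61795 bases from there to the end of the window. Inside the stretch the longest gap between calls of any list was 723 bases, between 3032419 and 3033142. Of the 39 bins of 1 kb with a call, 29 held calls of all 4 lists. The densest bin (3024001 to 3025000) held 35 calls at 18 different bases, 7 of them in KO S, 10 in WT S, 8 in KO L and 10 in WT L. Its outermost calls lay at 3024035, called in WT S, KO L and WT L at unit position 198, and at 3024946, called in KO S at position 174. The next calls on chromosome 9 beyond the window were at 3310290 in KO S (IPD ratio 2.13, coverage 19), 3266212 in WT S (4.05, coverage 8), 5557651 in KO L (2.42, coverage 6) and 4349305 in WT L (2.83, coverage 18). The RefSeq gene table of GRCm38.p6, which has the coordinates of mm10, lists 1 gene in the window. It is the microRNA gene Mir101c (3038669 to 3038743), which starts 464 bases after the last call and held none.

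**Figure D1:**
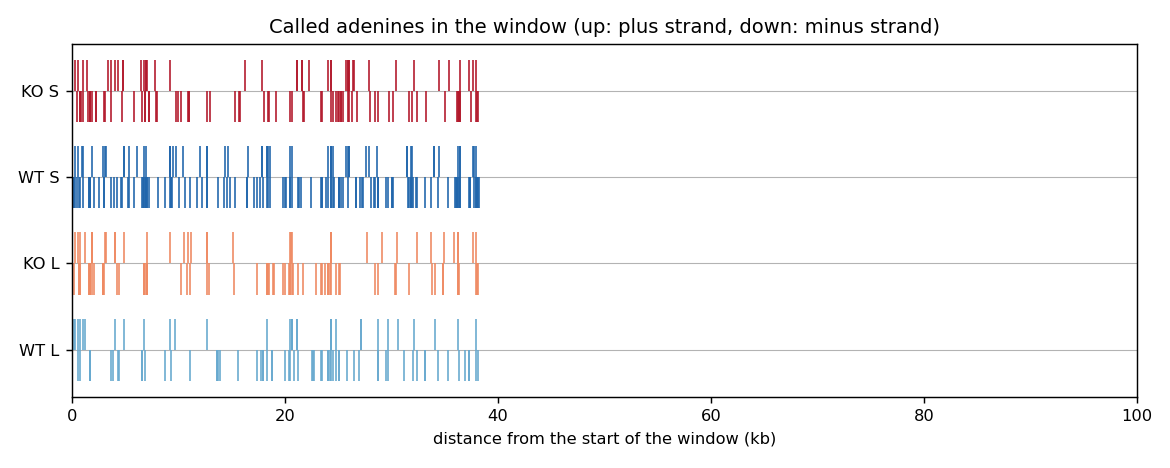
Called adenines of each list by distance from the start of the window (kb, horizontal axis), with plus-strand calls drawn upward and minus-strand calls downward from each list's line. All 4 lists fill the first 38 kb and are empty in the 61795 bases from the last call to the end of the window.

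The window made up 3.56% of the KO S list (interval 2.96% to 4.24%) and 2.73% of WT S (2.36% to 3.14%), and 3.58% of KO L (2.95% to 4.30%) and 2.51% of WT L (2.04% to 3.06%). KO S held 0.615 times as many calls here as WT S (0.486 to 0.776), against 0.468 times in the rest of the lists (0.449 to 0.488). KO L held 1.12 times as many as WT L (0.847 to 1.49), against 0.780 times in the rest (0.743 to 0.818). The interval of the L ratio in the window includes equal numbers, and the difference between the S and L ratios was not tested. Between the DNA parts, KO S held 1.10 times as many calls as KO L (0.842 to 1.44) and WT S 2.01 times as many as WT L (1.57 to 2.59). Depth moved with these numbers. Over 47 bases with a call in KO S and in WT S, the median ratio of coverage was 0.574 (KO S over WT S, 0.517 to 0.649). Over 31 bases with a call in KO L and in WT L it was 0.963 (KO L over WT L, 0.780 to 1.23). Coverage was 1.68 times as high in WT S as in WT L (1.37 to 1.97) at 43 shared bases and 1.10 times as high in KO S as in KO L (1.02 to 1.51) at 27. The part of depth in the numbers of calls was not tested, since depth is listed at called bases only.

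Minus-strand adenines carried more calls than plus-strand ones, and the unit has more adenines on the minus strand. The minus strand held 77 calls and the plus strand 43 in KO S, 136 and 59 in WT S, 72 and 37 in KO L, and 65 and 32 in WT L. The plus strand thus had 35.8% of calls in KO S (27.3% to 45.1%), 30.3% in WT S (23.9% to 37.2%), 33.9% in KO L (25.1% to 43.6%) and 33.0% in WT L (23.8% to 43.3%). In the unit the plus strand has 30.4% of the adenines, and in the 10983 bases of the window that the contexts cover it has 30.2%. Each of the 4 intervals includes both values.

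Spacing between calls showed the repeat more clearly on the plus strand. Pairs of calls of the same list and strand up to 1000 bases apart were counted per list and added up over the 4 lists. The same 2 bases thus count once for each list that calls both, as 3000314 and 3000548 do in all 4 lists. So counted, 17 plus-strand pairs lay exactly 1 unit length apart and 10 lay exactly 2 unit lengths apart. The averages below count pairs in the same way. Distances of 3 bases or more that were not within 2 bases of a multiple of the unit had 0.146 plus-strand pairs each on average and at most 9. On the minus strand 10 pairs lay 1 unit length apart, against an average of 0.862 and a maximum of 12, which was reached at 116 bases. Neighbouring calls added to both strands, with 19 plus-strand pairs at 2 bases and 22 minus-strand pairs at 1 base. Over both strands 9.69% of 1145 pairs were within 2 bases of a multiple of the unit, a zone that holds 2% of the distances.

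Coordinates counted in unit lengths along the chromosome did not line the calls up. The calls fell on 222 combinations of remainder and strand, the commonest of which (remainder 200, plus strand) held 10 calls and the tenth 6. The 10 commonest remainders held 15.8% of calls in KO S, 13.8% in WT S, 11.9% in KO L and 19.6% in WT L.

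Placed by their context instead, calls from 162.7 unit lengths fell on few adenines of the unit. The 500 placed calls used 64 positions, and 57 of the 148 adenines of the unit were called in some copy. The other 13 calls lay where the unit itself has no adenine and the copy does. The 10 leading positions, which were picked on these counts, held 297 of the 500. They held 69.8% of the placed calls in KO S (60.6% to 78.0%), 58.9% in WT S (51.5% to 66.1%), 49.5% in KO L (39.6% to 59.5%) and 58.5% in WT L (47.9% to 68.6%). KO S used 28 positions, WT S 45, KO L 39 and WT L 38, and 21 positions were called in every list.

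**Figure D2:**
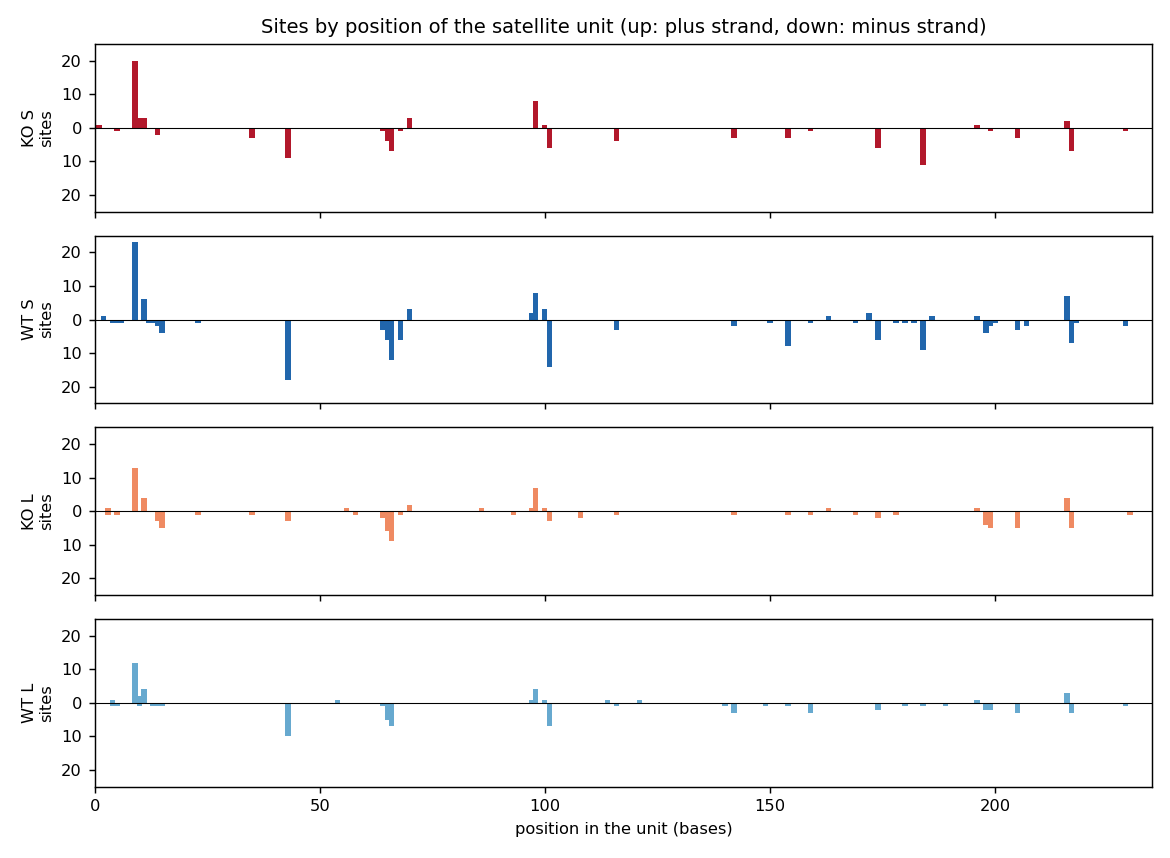
Number of calls in each list (vertical axis) at each position of the repeat unit (horizontal axis), with plus-strand calls drawn upward and minus-strand calls downward. Position 9 on the plus strand is the tallest bar of each list, with 20 calls in KO S, 23 in WT S, 13 in KO L and 12 in WT L.

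Position 9 on the plus strand led every list. It is the first A of the aaatttt stretch, after a T. It was called 20 times in KO S, 23 in WT S, 13 in KO L and 12 in WT L, at 46 different copies. These were 17.2% of the placed calls in KO S (10.9% to 25.4%), 12.4% in WT S (8.05% to 18.1%), 12.4% in KO L (6.76% to 20.2%) and 12.8% in WT L (6.77% to 21.2%), and the intervals overlap. Its kinetic signal was the lowest of the 10 leading positions, but unit positions, here and below, were not compared at equal coverage. The median IPD ratio was 1.47 (1.28 to 2.21 over the 68 calls), the median estimated modified fraction 14.5% (1.5% to 61.1%) and the median coverage 160. Calls of any position at a coverage of 200 or more had median IPD ratios from 1.39 in KO S to 1.44 in WT L. Position 11, the last A of the same stretch, had 17 calls with a median IPD ratio of 1.63, so positions 9 and 11 together held 85 of the 500 placed calls. Position 10 between them had 5 plus-strand calls. Minus-strand adenines of the stretch were called too, among them position 14 with 8 calls and position 15 with 10.

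A second group of calls sat at 3 alike places of the unit. Positions 43, 101 and 217 on the minus strand are 58 and 116 bases apart, and the printed contexts have the called adenine between an A and a T in each. At position 101 the commonest 9-base core was another one, tggaAtctg, in 12 of 30 calls. Position 43 had 40 calls (9 in KO S, 18 in WT S, 3 in KO L and 10 in WT L), position 101 had 30 (6, 14, 3 and 7 in the same lists) and position 217 had 22 (7, 7, 5 and 3). Together they held 92 placed calls. Most calls at position 217 matched the unit there at only 2 bases more than at their second best place. The base at 3038087, for example, matched at 35 bases with such a lead of 2 in every list. The counts and medians of position 217 thus rest on weakly resolved placements. Position 159, 58 bases after position 101 and 58 before position 217, had 6. Position 43 had the highest median modified fraction of the 10, 58.0%, at a median IPD ratio of 1.76. Medians were 45.7% and 1.86 at position 101 and 45.3% and 2.19 at position 217.

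The other leading positions differed in signal and also in coverage. Positions 65 and 66 on the minus strand, neighbouring adenines of a gaaatt stretch, had 21 and 35 calls with median IPD ratios of 1.90 and 1.91. Position 98 on the plus strand, between C and G in the printed context, and position 174 on the minus strand, after a C, had the highest median IPD ratio of the 10, both 2.33, with 27 and 16 calls. At position 98, 19 of the 27 calls had the core of the printed context, cgccAgatt. Some calls there matched another place of the unit equally well. The base at 3026039 did so at 37 bases in KO S and WT S, with IPD ratios of 1.68 and 1.63. The count, share and median of position 98 thus rest partly on unresolved placements. Position 216 on the plus strand also had 16 calls and lost the tie for the tenth place to position 174. Position 184 on the minus strand had 11 calls in KO S, 9 in WT S, 0 in KO L and 1 in WT L, which is 6.64% of placed calls in the S lists (20 of 301, 4.11% to 10.1%) and 0.503% in the L lists (1 of 199, 0.0127% to 2.77%). It was singled out after these values were seen. Its median IPD ratio was 1.53 and its median coverage 184, the highest of the 10. At satellite contexts outside the window the same position held 3.69% of calls in S (20 of 542, 2.27% to 5.64%) and 1.97% in L (9 of 456, 0.906% to 3.71%), where the intervals overlap. Without the unplaced contig JH584304 it held 7.87% in S (14 of 178, 4.37% to 12.8%) and 1.45% in L (2 of 138, 0.176% to 5.14%), which overlap too.

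The base on each side of the called adenine was unevenly represented in comparison with the unit. An adenine between A and T was carried by 23.0% of the calls and makes up 10.8% of the unit's adenines. An adenine between T and A was carried by 12.9% of calls and makes up 1.35% of the unit's adenines, which is the surrounding of position 9. Adenines inside a run (between A and A) were carried by 14.4% of calls and make up 24.3% of the unit's adenines, and those between C and T were carried by 1.92% and make up 7.43%. Calls were counted in their own contexts and adenines in the rebuilt unit, from which copies differ by a median of 2 of 41 bases.

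Calls of the window had lower IPD ratios than calls in the rest of the lists and were covered far more deeply. The median IPD ratio was 1.77 in KO S (1.70 to 1.89), 1.75 in WT S (1.68 to 1.83), 1.74 in KO L (1.68 to 1.86) and 1.75 in WT L (1.63 to 1.87). In the rest of the lists the medians were 2.69, 2.59, 2.60 and 2.58. Median coverage in the window was 83, 122, 85 and 85, against 11, 14, 10 and 10 in the rest, each in the same order of lists. Deep coverage was not particular to the window. Calls at satellite contexts outside it had a median coverage of 86 in KO S, 111 in WT S and 88 in KO L. IPD ratios and modified fractions of the window and the rest were not compared at equal coverage. Nor were they compared with those of satellite calls outside the window, so low values need not be particular to it. The median modified fraction was 32.0% in KO S (25.6% to 37.2%), 26.7% in WT S (23.0% to 31.6%), 28.7% in KO L (25.3% to 34.9%) and 27.5% in WT L (23.2% to 31.8%), and in the rest it was 74.0%, 69.6%, 64.0% and 67.7%. Of the calls with a fraction, 21.7% in KO S, 21.6% in WT S, 21.3% in KO L and 19.8% in WT L of the window had 50% or more, against 73.0%, 70.5%, 65.7% and 67.9% in the rest. The identification score, which states the fit to N6-methyladenine in particular, had medians of 13, 16, 15 and 15, against 8, 8, 7 and 7 in the rest. The intervals of KO and WT overlapped for the IPD ratio and the modified fraction in both parts.

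Within the window the IPD ratio of a call went with its coverage. At a coverage of 200 or more the median IPD ratio was 1.39 in KO S (23 calls), 1.43 in WT S (53), 1.43 in KO L (13) and 1.44 in WT L (13). Calls with coverage under 50 had medians of 2.19 in KO S (39 calls), 2.24 in WT S (44), 2.19 in KO L (29) and 2.16 in WT L (31). Median modified fractions were 14.6% in KO S, 14.2% in WT S, 13.5% in KO L and 10.9% in WT L at the deeply covered calls, against 54.1%, 60.4%, 54.6% and 46.5% at coverage under 50. Spearman's rho between IPD ratio and coverage was -0.71 over the 120 calls of KO S, -0.65 over 195 of WT S, -0.61 over 109 of KO L and -0.67 over 97 of WT L. The calls share the need for a score of at least 20, the lowest in any list, and the part of that limit in the relation was not tested.

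**Figure D3:**
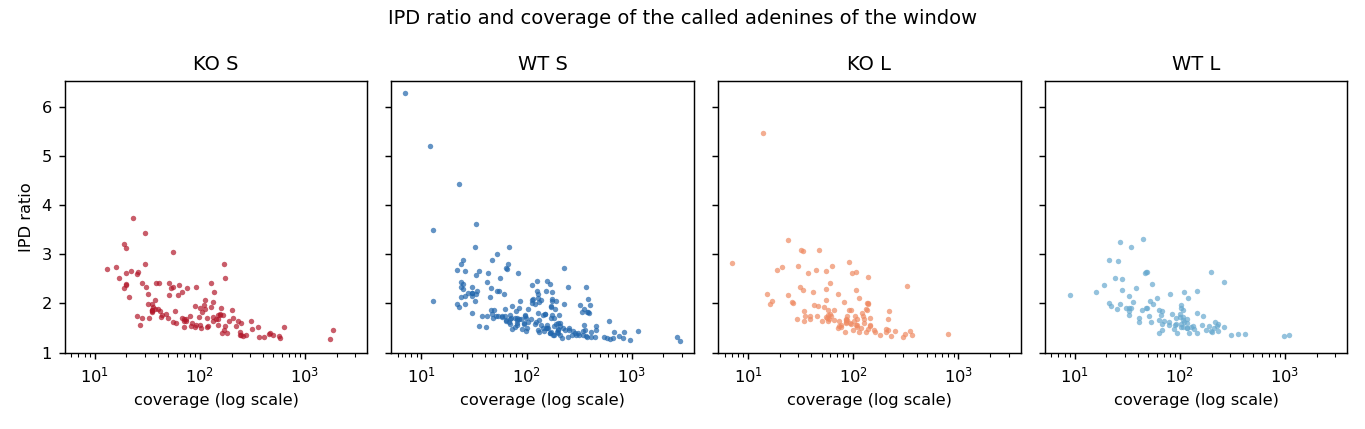
IPD ratio (vertical axis) and coverage (horizontal axis, log scale) of each called adenine in the window, with 1 panel per list. The highest ratios, up to 6.27 in WT S and 5.47 in KO L, stand at coverage of 7 and 14, and calls covered 1000 times or more stay below 1.5.

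The strongest single calls show this range. In WT S the highest IPD ratio was 6.27 at 3006133 (position 98, plus strand), at a coverage of 7 and with no fraction given, followed by 5.21 at 3017650 (position 184) at a coverage of 12. KO L had 5.47 at 3022956 at a coverage of 14 and 3.28 at 3002899 (position 198). KO S reached 3.74 at 3027988 (position 174) and 3.43 at 3007070 (position 98), and WT L 3.31 at 3008771 (position 101) and 3.24 at 3024777. The highest scores lay elsewhere, at deeply covered bases that recurred between lists. The base at 3024370 (position 65, minus strand) had a score of 162 in WT S, 159 in KO L and 138 in WT L, with IPD ratios of 2.33, 2.35 and 2.44 and coverage of 370, 327 and 262. The base at 3009255 had 177 in WT S, the base at 3037968 had 128 in KO S and 91 in KO L, and the base at 3000713 had 108 in KO S and 130 in WT L.

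Calls in the window recurred between lists at the same base more often than calls did over the whole lists, but not more often than satellite calls outside the window. Of the 372 bases, 278 were called in 1 list, 52 in 2, 29 in 3 and 13 in all 4. Of the KO S calls, 39.2% were at a base also called in WT S (47 bases, 30.4% to 48.5%), which is 24.1% of the WT S calls; over the whole KO S list the share was 4.78%. Of the KO L calls, 28.4% were shared with WT L (31 bases, 20.2% to 37.9%), or 32.0% of the WT L calls, against 4.63% over the whole KO L list. Between the DNA parts, 22.5% of KO S calls were shared with KO L (27 bases, 15.4% to 31.0%), against 3.56% over the list, and 22.1% of WT S calls with WT L (43 bases, 16.4% to 28.5%), against 2.38%. Outside the window, 998 calls had a context that matched the unit. Of them, 46.3% in KO S were also called in WT S (39.5% to 53.2%), 42.3% in KO L in WT L (35.6% to 49.2%), 37.5% in KO S in KO L (31.0% to 44.3%) and 34.7% in WT S in WT L (29.5% to 40.1%). These shares are higher than in the window for each pair of lists, with overlapping intervals for the pairs of KO and WT. On the contig JH584304 alone the shares were 33.3%, 34.7%, 28.9% and 30.1%, at median coverage of 64 in KO S and 82 in WT S, and on the other sequences they were 67.9%, 58.8%, 51.9% and 45.4%, at 356 in KO S and 470 in WT S.

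Depth moved with recurrence. KO S calls shared with WT S had a median coverage of 101 and a median score of 39, against 59 and 28 at KO S calls that were not shared, while the median IPD ratios were 1.76 and 1.77. For KO L the medians at shared and unshared calls were 121 and 76.5 in coverage and 35 and 27.5 in score. Positions of the unit differed in this too: 29 of the 35 calls at position 66 were at a base called in at least 2 lists, 37 of 68 at position 9, 19 of 40 at position 43 and 5 of 21 at position 184.

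At the same base, the interval of the median difference in IPD ratio between genotypes included 0 in both parts. In S the median difference was 0.03 (KO S minus WT S, -0.14 to 0.17), with 26 bases higher in KO S and 21 lower. In L it was 0.06 (KO L minus WT L, -0.09 to 0.18), with 17 bases higher in KO L and 14 lower. The modified fraction differed by a median of 0.8 percentage points in S (-3.8 to 3.3) and 3.3 points in L (-1.4 to 10.6), KO minus WT. Between the DNA parts the median difference in IPD ratio was 0.03 in KO (KO S minus KO L, -0.10 to 0.20) and -0.05 in WT (WT S minus WT L, -0.14 to 0.01), with 15 bases higher and 27 lower in WT S. These intervals bound the median difference at a shared base and say nothing of bases called in 1 genotype. Ratios at the same base ranked alike in different lists. Spearman's rho was 0.79 between KO S and WT S over 47 bases, 0.73 between KO L and WT L over 31, 0.81 between KO S and KO L over 27 and 0.82 between WT S and WT L over 43. The points share the base, its sequence and the need to be called in both lists.

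The 13 bases called in every list lay at 8 positions of the unit: 3 lay at position 9, 3 at position 66, 2 at position 98, and 1 each at positions 65, 101, 174, 216 and 217. The contexts of 3 of them, at low, middle and high IPD ratio, are printed with the called adenine in capitals.

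3000548, plus strand: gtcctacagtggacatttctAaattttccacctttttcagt
3036301, minus strand: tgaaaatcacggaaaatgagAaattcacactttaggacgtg
3000713, minus strand: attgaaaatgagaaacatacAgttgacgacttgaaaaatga

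The base at 3000548 (position 9) was the most deeply covered of the 13, with coverage of 1733 in KO S, 2720 in WT S, 795 in KO L and 1095 in WT L. Its IPD ratio was 1.28 in KO S, 1.32 in WT S, 1.38 in KO L and 1.35 in WT L, and its modified fraction 4.4%, 4.8%, 7.2% and 1.5%. These 4 ratios are the narrowest set of the 13 together with those at 3000314, also position 9, where KO S had 1.34, WT S 1.33, KO L 1.43 and WT L 1.37. Another base at position 9, at 3024314, had 1.56 in KO S, 1.32 in WT S, 1.33 in KO L and 1.58 in WT L.

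The base at 3036301 (position 66) had IPD ratios of 1.70 in KO S, 1.88 in WT S, 1.89 in KO L and 1.40 in WT L. At 3023436 (position 66) and its neighbour 3023435 (position 65), the ratios were 1.79 and 1.76 in KO S, 1.53 and 1.60 in WT S, 1.71 and 1.56 in KO L, and 1.75 and 1.57 in WT L. Neither genotype was higher throughout at these neighbouring adenines.

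The base at 3000713 (position 174) had 2.80 in KO S, 2.09 in WT S, 2.53 in KO L and 2.63 in WT L, with modified fractions of 45.5%, 29.2%, 41.2% and 48.8%. At 3037968 (position 98, plus strand) the ratio was 2.51 in KO S, 2.33 in WT S, 2.64 in KO L and 2.26 in WT L, and 3 bases on, at 3037971 (position 101, minus strand), it was 1.90, 1.49, 1.56 and 1.39. Both of these bases were higher in KO than in WT in both parts. At 3024287 (position 216, plus strand) it was 1.69 in KO S, 1.45 in WT S, 1.68 in KO L and 1.50 in WT L, again higher in KO in both parts. Of the 13 bases, 4 were higher in KO in both parts and 0 were lower in KO in both, while at 9 the direction differed between S and L. The fourth was 3000314, where the difference in S was only 0.01. How many bases would be higher in both parts by chance was not worked out. Bases were listed by summed coverage and not by difference, and 1 value per list leaves no measure of replicate spread for them.

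**Figure D4:**
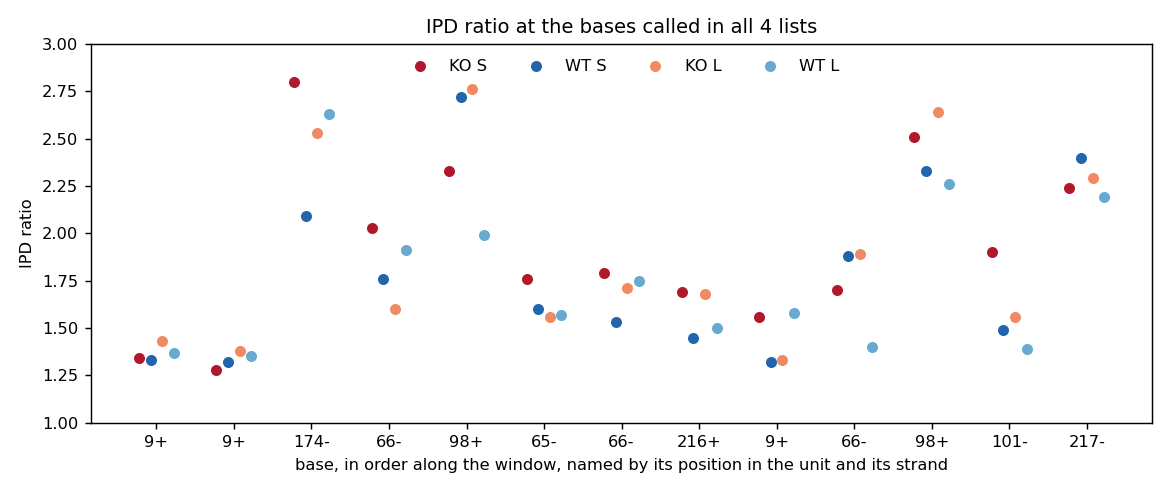
IPD ratio (vertical axis) at each of the 13 bases called in all 4 lists, in order along the window (horizontal axis, named by unit position and strand), with 1 point per list. Bases at position 9 stay between 1.28 and 1.58 in every list, and bases at positions 98, 174 and 217 between 1.99 and 2.80.

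Few calls lay on both strands at adjoining bases, and how many such pairs the sequence allows was not counted. An adenine called on the plus strand with the next base called on the minus strand occurred 0 times in KO S, 1 in WT S, 0 in KO L and 1 in WT L. Pairs 3 bases apart in the same orientation, as positions 98 and 101 are, occurred 2, 4, 1 and 2 times.

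Of the 998 calls outside the window that matched the unit, 682 lay on the unplaced contig JH584304, 187 on chromosome 14 and 68 on chromosome 2. The 10 positions picked in the window held 41.7% of them in KO S (35.0% to 48.5%), 36.2% in WT S (31.0% to 41.7%), 33.5% in KO L (27.2% to 40.2%) and 32.0% in WT L (26.1% to 38.2%). A lower share than in the window is partly built in, because the positions were picked there. Without JH584304 the shares elsewhere were 48.1% in KO S, 39.2% in WT S, 41.2% in KO L and 28.6% in WT L. Position 9 held 13.6% of placed calls in the window, 4.84% on JH584304 and 8.23% of the 316 calls on the other sequences, where it led as in the window. Position 43 held 8.0% in the window, 8.06% on JH584304 and 6.33% on the others. Position 98, whose placements were partly unresolved, held 5.4% in the window, below its 9.53% on JH584304 and above its 3.48% on the others.

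The contig JH584304 had other leading positions. Position 6 on the minus strand held 1 call in the window, 90 on JH584304 and 0 on the other sequences. In 84 of the 90 the called adenine sat in a core that no context of the window contains. Position 5 next to it held 4 calls in the window, 66 on JH584304 and 4 on the others, and position 89, also on the minus strand, held 0, 40 and 2. The cores are printed with the called adenine in capitals.

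Position 6 outside the window: tttagAagagt
Position 5 outside the window: ttagaAgagtc
Position 89 outside the window: gagaaAgctga

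None of these 3 cores was found in the 372 contexts of the window on either strand. The core of position 9 (tttctAaattt) stood in 82 of the 372 contexts of the window, on either strand and whichever base was called. Counted otherwise, with the called adenine at its middle, it stood in 37 of the 59 calls at that position elsewhere. Whether copies with the 3 cores exist in the window away from called bases cannot be seen from the lists.

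**Figure D5:**
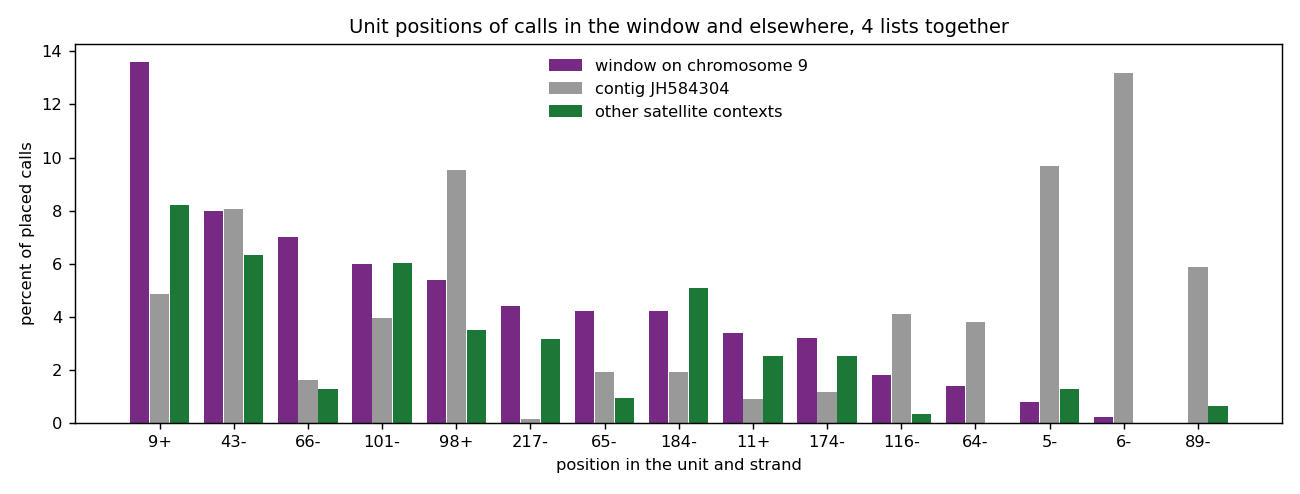
Percent of placed calls (vertical axis) at 15 positions of the unit (horizontal axis, position and strand), the leading 10 of the window and the leading 10 outside it, for the window (left bars), the contig JH584304 (middle bars) and the other satellite contexts (right bars), with the 4 lists together. Position 6 holds 0.2% in the window, 13.2% on JH584304 and 0% in the other contexts.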

How the data were processed

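Native H2A.X chromatin immunoprecipitation and single-molecule sequencing gave 4 deposited lists of called adenines, 1 per genotype and DNA part. Coordinates are those of mm10, which the submitters' processing notes name. Caller, aligner, filters and the joining of replicates: not given in the sources used here. The deposited score of a call is on the caller's scale, with 20 as its lowest value. The deposited IPD ratio is the observed over the predicted pause, and the coverage deposited with each call is a signal that was not normalized. The deposited modified fraction was given at coverage of 11 or more.

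Every call of the window was used. The unit was assembled from 15-base words of the contexts, and a context was placed without gaps where 33 or more of 41 bases matched, which left 21 calls without a place; 50 calls had a second place within 2 bases of the best. Outside the window, contexts sharing a 12-base word with the unit were placed likewise on either strand. Shares have exact Clopper-Pearson intervals, ratios the interval of the binomial share, and medians order-statistic intervals. Assembly, placing and intervals were tested on simulated data. Python 3.11.15, pandas 2.3.3, numpy 2.4.6 and scipy 1.17.1 were used. Unit positions with most calls, bases in all 4 lists by summed coverage, and in each list the 2 highest IPD ratios, the 2 highest scores and the outermost calls were named by rule. The window and lists were chosen with earlier results of these data known.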

Additional observations from a re-analysis of the deposited data

Results flagged for a closer look

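The KO to WT ratio of calls was 0.615 in S (0.486 to 0.776) and 1.12 in L (0.847 to 1.49), where the interval includes 1. It was lower in S than in L in the rest of the lists too, with 0.468 in S and 0.780 in L. The share of placed calls at the 10 leading unit positions was 10.9 percentage points higher in KO S than in WT S and differed by -8.99 points between KO L and WT L. The intervals of KO and WT overlapped for this share in both parts. Neither difference between S and L was tested, since each group had 1 list, and coverage at shared bases was 0.574 times as high in KO S as in WT S and 0.963 times as high in KO L as in WT L.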

How the results depend on the processing

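No paired analysis was possible because each list joins both replicates of its group, and no replicate could be left out for the same reason. Of 102 values under other settings, 85 stayed within the interval of the reported value and 17 moved out of it; the cause was not tested. The median difference in IPD ratio at shared bases between KO L and WT L, 0.06 with an interval that includes 0, turned to -0.01 at a score of 30 or more and to -0.025 at an identification score of 20 or more. At an identification score of 20 or more the KO S to WT S ratio of calls was 0.460, the plus-strand share in WT L 22.9%, the median IPD ratio in WT S 1.88 and the share of WT S calls found in WT L 16.1%. At that score the 10 commonest remainders of the coordinate held 20.7% in WT S, 26.2% in KO L and 31.4% in WT L. At a score of 30 or more the plus-strand share in KO S was 22.4%, and the median IPD ratio was 1.90 in KO S, 1.97 in WT S, 1.91 in KO L and 1.91 in WT L. Placing calls by context in place of the coordinate put 67.5% of all KO S calls, 55.9% of WT S, 47.7% of KO L and 56.7% of WT L at 10 positions. Unit lengths 1 base shorter and 1 base longer gave shares within the interval. Settings chosen after seeing the data were a match of 37 bases, a lead of 3, coverage of 25 for placed calls, and leaving out JH584304, which moved the share elsewhere in KO L to 41.2%. Depth is known at called bases only, so a base without a call cannot be read as unmodified.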
